A study of Mus musculus with 6 samples.

Results

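The genes of squamous and hillock differentiation, 10 of the 20483 genes in the deposited count table, were followed through 23871 cells of mouse tracheal epithelial cultures. The 10 genes are *Krt13*, *Krt4*, *Krt6a*, *Krt6b*, *Psca*, *Tgm3*, *Nccrp1*, *Calml3*, *Lypd3* and *Ivl*, and all 10 were present in the table. The list was chosen by name, with their high level in the cluster that the authors called Basal4 already known from these cells, so their levels by cell type are given as a description without a test. The cells came from 3 *WT/WT* mice (WT1, WT2 and WT3) and 3 *MIS/MIS* mice (MT1301, MT1306 and MT1383), all C57BL/6 and 12 weeks old. *MIS/MIS* mice are homozygous for a missense allele of *Dnaaf5*, a gene whose product helps to assemble the dynein motors of cilia, and the labels call them DNAAF5 Mutant. Primary tracheal cells of both genotypes were differentiated at air-liquid interface (ALI), where basal progenitors form multiciliated and secretory cells. No treatment is named in the labels. One droplet library was made per mouse, so that the mouse is the replicate.

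Stratified squamous epithelia, such as those of the esophagus and skin, replace the simple keratins with paired keratins of layered tissue and finally cross-link a protein envelope under the membrane. The trachea normally holds few such cells. Small patches of layered *Krt13*+ *Krt4*+ cells over tracheal basal cells, called hillocks, are the best known. *Krt13* and *Krt4* encode the keratin pair of non-cornifying layered epithelium, and *Krt6a* and *Krt6b* encode keratins of wounded and suprabasal epithelium. *Psca* and *Lypd3* encode small membrane-anchored proteins of the Ly6 family. *Tgm3* encodes a transglutaminase that cross-links envelope proteins, and *Ivl* encodes involucrin, an early envelope substrate. *Calml3* encodes a calmodulin-like protein of epithelial cells, and *Nccrp1* a protein found in squamous epithelium.

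The genes were placed by the GENCODE M21 annotation of GRCm38 (mm10, the build named in the submitters' processing notes). On chromosome 15, *Psca* is at chr15:74714839-74717069 on the plus strand with 3 exons. *Krt6b* is at chr15:101676023-101680287, *Krt6a* at chr15:101689910-101694307 and *Krt4* at chr15:101918535-101924735, all on the minus strand. *Krt13* occupies chr11:100117327-100121566 on the minus strand with 8 exons, *Tgm3* chr2:130012349-130050399 on the plus strand with 13 exons, and *Ivl* chr3:92570902-92573735 on the minus strand with 2 exons. *Lypd3* (chr7:24636550-24641118, plus) and *Nccrp1* (chr7:28543596-28547254, minus) share chromosome 7, and *Calml3* is a gene of 1 exon at chr13:3802896-3804316 on the minus strand. *Krt6a* and *Krt6b* are near copies, with 90.5% identity between their transcripts. Over their last 500 bases, the end that the 3′ assay reads, identity was 68.3% and the longest shared run was 22 bases. Reads that fall farther upstream could be shared between the pair, so their split is less certain than that of the other members. *Nccrp1* overlaps *Samd4b* on the same strand.

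The stretches before the start sites of *Krt13*, *Tgm3* and *Ivl* are shown because *Krt13* is the gene by which hillocks are best known, *Tgm3* was the member most restricted to Basal4, and *Ivl* was the member not highest there. They are the 250 bases upstream of the RefSeq start on GRCm38.p6, 5′ to 3′ on the strand of the gene, and they extend over chr11:100121567-100121816 (*Krt13*), chr2:130012090-130012339 (*Tgm3*) and chr3:92573736-92573985 (*Ivl*). Capitals mark matches on either strand to the letters TATAAA or ATAAAA, which resemble a TATA box and can overlap each other, and to TGANTCA. The last is looser than TGACTCA, the core bound by AP-1 factors, because N stands for any base. The letters searched were chosen after the sequences were seen.
Krt13: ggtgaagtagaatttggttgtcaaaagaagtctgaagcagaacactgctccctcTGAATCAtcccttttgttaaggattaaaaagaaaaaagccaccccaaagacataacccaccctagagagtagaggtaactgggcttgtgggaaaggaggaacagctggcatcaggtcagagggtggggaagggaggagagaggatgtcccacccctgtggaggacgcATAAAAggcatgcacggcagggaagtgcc
Tgm3: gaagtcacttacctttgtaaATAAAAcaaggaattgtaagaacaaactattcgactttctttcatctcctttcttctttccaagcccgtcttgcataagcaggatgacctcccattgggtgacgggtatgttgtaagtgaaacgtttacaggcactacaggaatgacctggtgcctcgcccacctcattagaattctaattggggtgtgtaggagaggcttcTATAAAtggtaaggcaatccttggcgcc
Ivl: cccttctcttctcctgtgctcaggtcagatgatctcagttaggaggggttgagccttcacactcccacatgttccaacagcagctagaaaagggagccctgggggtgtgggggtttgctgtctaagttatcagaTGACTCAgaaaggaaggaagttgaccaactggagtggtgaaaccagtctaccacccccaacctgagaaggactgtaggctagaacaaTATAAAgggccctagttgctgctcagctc
Nearest to the start, *Krt13* has ATAAAA beginning 29 bases upstream, *Tgm3* has TATAAA at 28 bases and *Ivl* has TATAAA at 29 bases. TGANTCA occurred once before *Krt13* (196 bases upstream) and once before *Ivl* (116 bases upstream), and these letters were not found in the windows of *Tgm3* or *Lypd3*. The match before *Ivl* was TGACTCA, whereas that before *Krt13* was TGAATCA, which is not the AP-1 core. Of 32851 windows of this length in the reference table, 12.4% held TATAAA, 17.0% held ATAAAA and 6.75% held TGANTCA. The table held a window for 4 of the 10 members, with *Lypd3* as the fourth.

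The 6 libraries held 2673 to 6710 cells and 100961835 to 153326568 unique molecular identifiers (UMIs), each of which counts 1 captured transcript molecule. Median UMIs per cell ranged from 21328 in MT1383 to 35383 in MT1306. *Dnaaf5* was detected at 9.87 to 13.6 UMIs per 1000000 UMIs of the sample (CPM) in *WT/WT* and at 15.2 to 21.2 CPM in *MIS/MIS* mice (limma voom adjusted p = 0.82), and since a missense allele is still transcribed, its level does not check the labels. Against its markers, with the cells of all mice pooled, Basal4 had the basal genes *Krt5* (942 CPM) and *Trp63* (104 CPM), little of the secretory gene *Scgb1a1* (4.81 CPM) or the multiciliated gene *Foxj1* (1.68 CPM), and the hillock genes *Krt13* and *Krt4* at their highest. The basal markers were split in Basal8. It had less *Krt5* (43.0 CPM) and *Trp63* (5.27 CPM) than Secretory2 (100.3 and 11.8 CPM). *Krt14* (44.8 against 10.1 CPM) and *Krt15* (5621 against 3358 CPM) were higher in Basal8, and *Scgb1a1* (177 against 274 CPM) was lower. Of 14 markers of leukocytes, fibroblasts, endothelium, smooth muscle, cartilage and neighbouring epithelia, 10 to 13 were above 0 in each mouse. Their summed levels were 66.5 to 149 CPM by mouse and 23.5 CPM in Basal4. *Nkx2-1* gave much of the sum of each mouse, from 36.2 CPM in WT1 to 71.4 CPM in MT1301. It was above 0 in every cell type (1.53 CPM in Basal4 to 117 CPM in neuroendocrine cells), so the sum does not count foreign cells alone. The sum of Basal4 was thus low in part through its low *Nkx2-1*. *Krt76*, counted as a marker of neighbouring epithelia, was highest in Basal4 (4.09 CPM) and at most at 0.59 CPM elsewhere. The fibroblast markers *Col1a1* and *Col1a2* were at 19.6 and 19.98 CPM in WT3 and at most at 0.033 CPM in any other mouse. In Basal1 they were at 26.85 and 26.995 CPM, and in Basal4 at 0.066 and 0 CPM. The fibroblast markers *Dcn* and *Pdgfra* set WT3 apart far less. *Dcn* was at 24.5 CPM in WT3, 20.9 in MT1306 and 17.5 in MT1383, and it was highest in ionocytes (222 CPM). *Pdgfra* was at 0.13 to 0.34 CPM in every mouse. The leukocyte markers *Ptprc* and *Cd3e* were at 0 in Basal4, whereas *Cd68*, also counted as a leukocyte marker, was at 15.5 CPM there and 40.3 CPM in Secretory2. Of the 23804 cell barcodes, 67 occurred in 2 libraries.

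Basal4 was distributed very unevenly among the mice. WT1 contributed 1048 of its 1365 cells, WT3 167, MT1306 118, MT1383 29, WT2 2 and MT1301 1. These were 36.9% of the cells of WT1, 6.03% of WT3, 4.41% of MT1306, 0.43% of MT1383, 0.041% of WT2 and 0.025% of MT1301. The level of a gene in a cell type is given as the CPM of the summed cells of each mouse with at least 10 cells of that type, so that Basal4 rests on 4 mice.

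Of the 10 members, 9 had their highest mean level in Basal4, as against 3.97% of the 11730 genes that reached 10 CPM in any of the 16 cell types. *Krt13* was at 7144 ± 4125 CPM in Basal4 (SD, n = 4 mice) and at 209 ± 258 CPM in Basal1 (n = 6), the next cell type. It reached 8349 CPM in WT1, 12331 CPM in WT3, 5017 CPM in MT1306 and 2881 CPM in MT1383, all above the highest Basal1 value of 719 CPM. For 7 of the members (*Krt13*, *Krt6a*, *Psca*, *Tgm3*, *Nccrp1*, *Calml3* and *Lypd3*) the mice did not overlap between Basal4 and the second cell type. In the heat map of levels by cell type, Basal4 is the bright column and the row of *Ivl* departs from it.

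**Figure D1:**
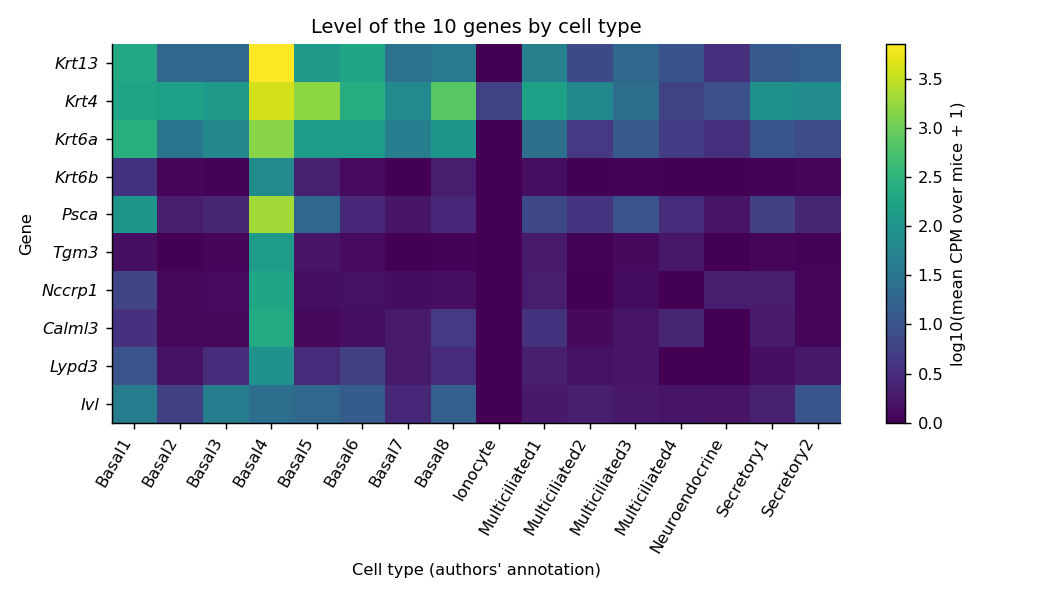
Mean CPM over mice of the 10 genes (rows) in the 16 cell types (columns), coloured as log10 of the mean CPM plus 1. *Krt13* in Basal4 (7144 CPM) is the brightest square, *Krt4* is also bright in Basal5 (1593 CPM) and Basal8 (722 CPM), and *Ivl* is highest in Basal3 (44.1 CPM).

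By the ratio of the mean in Basal4 to that in the second cell type, *Tgm3* (142) and *Calml3* (63.0) were the most restricted members and *Ivl* (1.08) and *Krt4* (2.49) the least. *Tgm3* was at 181 CPM in WT1, 188 CPM in WT3, 42.0 CPM in MT1306 and 107 CPM in MT1383 within Basal4, and its next highest cell type, Multiciliated1, held 0.91 ± 1.94 CPM (n = 6). Basal4 contained 97.1% to 98.6% of the *Tgm3* UMIs in each of the 4 mice with any, and WT2 and MT1301 had no *Tgm3* UMI in any cell, which allows a level of up to 0.021 CPM in each by counting error alone. *Calml3* was at 222 ± 226 CPM in Basal4 and 3.53 ± 4.51 CPM in Basal8 (n = 5). *Nccrp1* was at 188 ± 150.1 CPM in Basal4 and 5.37 ± 8.36 CPM in Basal1, *Lypd3* at 90.5 ± 54.0 and 8.56 ± 7.18 CPM, and *Psca* at 2119 ± 2339 and 104 ± 114 CPM. The share of UMIs that lay in Basal4 differed widely between mice, as did the number of its cells. For *Krt13* it was 96.5% in WT1, 10.7% in WT2, 93.7% in WT3, 0% in MT1301, 86.9% in MT1306 and 35.0% in MT1383. For *Lypd3* the corresponding shares were 94.1%, 3.82%, 80.5%, 0%, 67.5% and 8.91%, so that MT1383 had most of its *Lypd3* outside Basal4. *Krt6b* in Basal4 ranged from 1.62 CPM in MT1383 to 232 CPM in WT3 and overlapped with Basal1, where 10.7 CPM was the highest value.

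*Krt4* did not mark the same cells as its partner *Krt13*. It was at 3967 ± 1989 CPM in Basal4, 1593 ± 443 CPM in Basal5 and 722 ± 445 CPM in Basal8 (n = 5 each for the last 2), and Basal4 and Basal5 overlapped between mice. In Basal5, *Krt4* reached 1923 CPM in WT1, 1451 in WT3, 2186 in MT1301, 1199.5 in MT1306 and 1205 in MT1383, so both genotypes had it and none of these 5 mice was low. WT2 had 0 Basal5 cells, and WT3 and MT1301 had only 36 and 35. *Krt13* in Basal5 was at 115 ± 72.6 CPM. In cells thinned to 5000 UMIs each, so that depth was equal, and pooled over mice, 93.9% of Basal4 cells had UMIs of both keratins. In Basal5, 10.1% had both and 80.4% had *Krt4* alone, and in Basal8 the shares were 9.83% and 70.1%. These pooled shares mix mouse with cell type. WT1 gave 1048 of 1365 Basal4 cells, MT1383 729 of 1180 Basal5 cells and MT1301 209 of 458 Basal8 cells. Basal4 accounted for 84.9% of the *Krt4* UMIs in WT1, 78.9% in WT3, 46.0% in MT1306 and 4.01% in MT1383. *Krt6a* was at 1470.2 ± 855 CPM in Basal4 and 275 ± 265 CPM in Basal1.

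*Ivl* had another pattern. Its means were 44.1 ± 21.2 CPM in Basal3, 40.8 ± 19.0 CPM in Basal1 and 23.9 ± 15.5 CPM in Basal4, and these neighbours did not differ beyond the spread between mice. In Basal3 it was at 26.5 CPM in WT1, 53.6 in WT2, 70.0 in WT3, 50.6 in MT1301, 52.7 in MT1306 and 11.4 in MT1383. WT1, the mouse richest in Basal4, and MT1383 were thus the low ones. Basal4 held 0% to 10.5% of the *Ivl* UMIs of each mouse except WT1, where 473 of 946 UMIs lay there. Across the 16 cell types, Pearson's r of log2(CPM + 1) with *Krt13* was 0.68 for *Ivl*, compared with 0.77 to 0.94 for the other 8 members. With those 8, r of *Ivl* ran from 0.32 (*Tgm3*) to 0.74 (*Krt4*) and 0.81 (*Krt6a*). The cell types share their libraries, so these correlations are a description.

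Members within Basal4 were not evenly spread over its cells. After thinning to 5000 UMIs, *Krt13* was found in 99.9% of the Basal4 cells of WT1, 94.6% of WT3, 83.1% of MT1306 and 51.7% of MT1383. *Krt4* was found in 82.8% to 98.4% of the cells of these mice and *Krt6a* in 88.4% of WT1, 95.8% of WT3, 66.1% of MT1306 and 62.1% of MT1383. The other members were found in fewer cells of each mouse, with *Psca* in 13.8% to 31.7%, *Lypd3* in 13.8% to 32.9%, *Tgm3* in 8.47% to 31.0%, *Nccrp1* in 10.3% to 26.2%, *Calml3* in 4.24% to 25.1%, *Krt6b* in at most 20.4% and *Ivl* in 3.45% to 11.02%. Over the pooled cells, of which WT1 gave 1048, the 137 cells with most *Psca* held 91.1% of the *Psca* UMIs of Basal4, whereas the 137 cells with most *Krt13* held 34.8% of its UMIs. At least 5 of the 10 members were detected in 522 of the 1365 cells (38.2%), as against 26 of 2334 cells in Basal1 and 1 of 1180 in Basal5. By mouse, this share was 41.3% in WT1, 36.5% in WT3, 20.3% in MT1306 and 10.3% in MT1383.

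Basal4 cells with and without a *Psca* UMI at the thinned depth were then compared within each mouse, a split chosen after the data were seen. It put 294 of 1048 cells of WT1, 53 of 167 of WT3, 22 of 118 of MT1306 and 4 of 29 of MT1383 among the *Psca*+ cells. *Krt13*, *Krt4*, *Krt6a*, *Tgm3*, *Calml3* and *Lypd3* were higher in the *Psca*+ cells of 4 of 4 mice. *Krt6b* and *Ivl* were higher there in 3 of 4 mice, *Ivl* by at most 1.62 times, and both had 0 UMIs in the *Psca*+ cells of MT1383. *Nccrp1* was at 492 CPM in *Psca*+ and 41.2 CPM in the other Basal4 cells of WT1, at 964 and 2.95 CPM in WT3 and at 281 and 7.31 CPM in MT1306, and in MT1383 its 57 UMIs all lay in the *Psca*+ cells. *Krt13* differed less, by 1.62 times in WT1, 5.51 times in WT3 and 2.82 times in MT1306. Of 4 basal genes, *Krt14*, *Krt5* and *Trp63* went the other way in 4 of 4 mice, whereas the basal keratin *Krt15* was higher in *Psca*+ cells of WT1 (1.16 times) and WT3 (1.84 times) and lower in those of MT1306 and MT1383. *Krt14*, a keratin of attached basal cells, was at 328 CPM in *Psca*+ and 1080.2 CPM in the other cells of WT1, at 535 and 2909 CPM in WT3 and at 8.52 and 1745 CPM in MT1306. *Krt5* in *Psca*+ cells was 0.21 to 0.47 times, and *Trp63*, the master regulator of basal cells, 0.25 to 0.67 times its level in the remaining cells. *Psca*+ cells were also deeper before thinning, with a median of 37897 against 28752 UMIs in WT1, and the part of cell size in these differences was not tested.

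**Figure D2:**
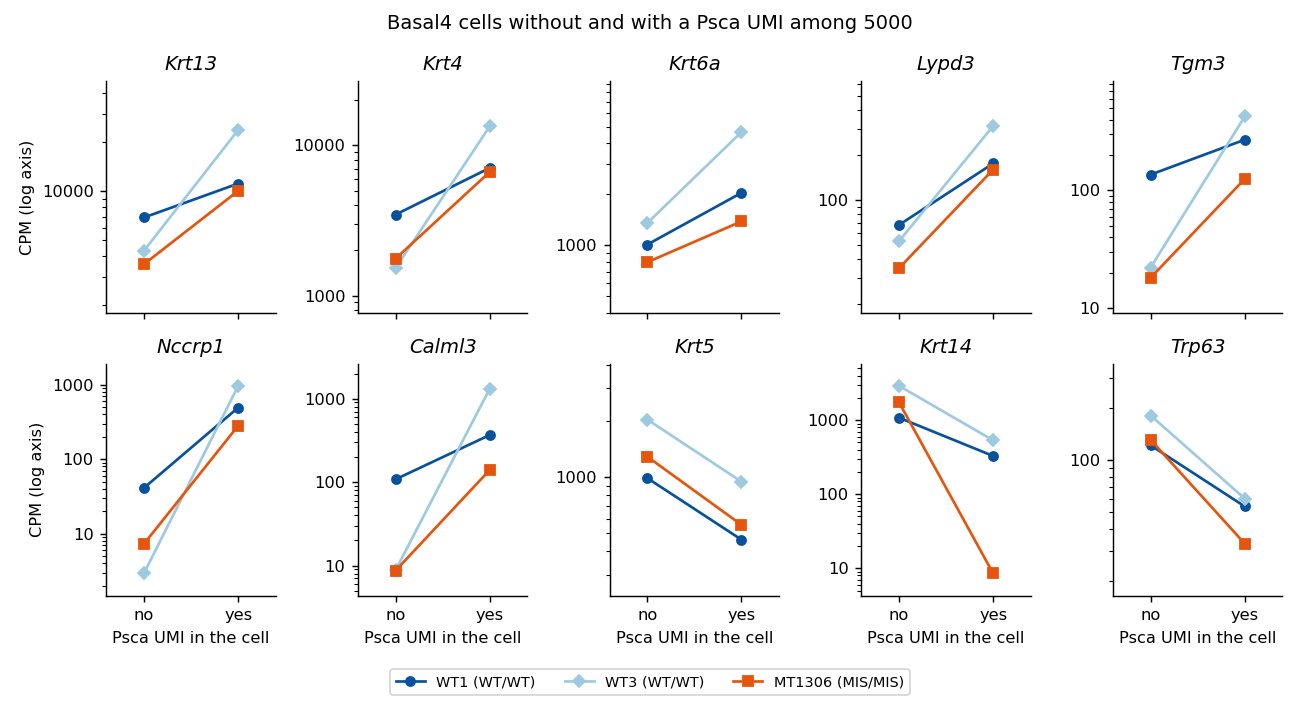
CPM (log axes) of 10 genes in Basal4 cells without and with a *Psca* UMI among 5000, with 1 line for each of the 3 mice that had over 20 *Psca*+ cells in Basal4. Lines rise for the members drawn and fall for *Krt5*, *Krt14* and *Trp63* in WT1, WT3 and MT1306. *Krt6b*, *Ivl* and *Krt15* are not drawn.

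Outside Basal4, the members kept a spread between mice. Among the 10 other cell types with at least 10 cells in every mouse, *Krt13* was highest in WT1 in 10 of 10. *Psca* and *Tgm3* were highest in WT1 in 8, *Calml3* in 7 and *Nccrp1* in 6. For *Krt6a* and *Krt6b* this number was 5, for *Krt4* and *Lypd3* 4 and for *Ivl* 0. *Tgm3* was at 0 in every mouse in 2 of these cell types and had only 89 UMIs outside Basal4 in WT1. In Basal1, *Krt13* was at 719 CPM in WT1, 55.1 in WT2, 199.6 in WT3, 19.5 in MT1301, 109.7 in MT1306 and 149.8 in MT1383. In Basal6, the respective levels were 770.1, 50.5, 125, 11.6, 137 and 62.2 CPM. WT1 stood alone at the top in both cell types, and WT2 lay among the *MIS/MIS* mice. The plot of *Krt13* in every mouse shows WT1 at the top of each of these 10 cell types.

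**Figure D3:**
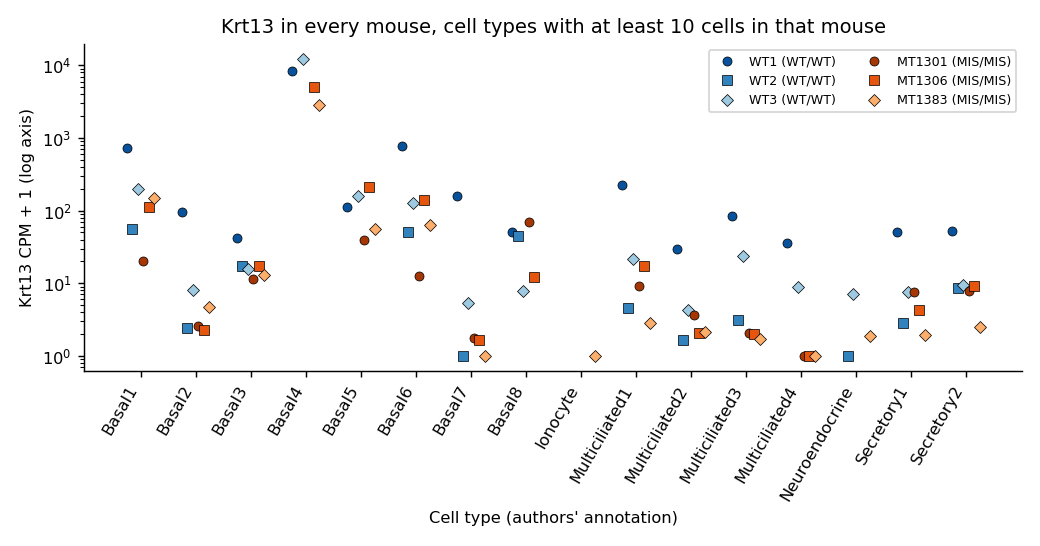
*Krt13* CPM plus 1 (log axis) by cell type, with 1 point for each mouse that had at least 10 cells of the type. Basal4 points run from 2881 to 12331 CPM, and the point of WT1 is the highest in Basal1 (719 CPM), Basal6 (770.1 CPM) and Multiciliated3 (82.7 CPM).

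Part of this level lay in few cells. Of 22506 cells outside Basal4, 140 (0.62%) had *Krt13* at 1000 CPM or more, and 61 of them were in Basal1, 25 in Basal5 and 25 in Basal6. In Basal4 itself 1276 cells exceeded that level, namely 1036 in WT1, 142 in WT3, 86 in MT1306, 11 of 29 in MT1383, 1 of 2 in WT2 and 0 of 1 in MT1301. The 140 cells held 74.5% of the *Krt13* UMIs outside Basal4 in WT1, 60.5% in WT2, 71.7% in WT3, 25.7% in MT1301, 60.3% in MT1306 and 81.7% in MT1383. The limit of 1000 CPM is a range rather than a type, and 133 cells outside Basal4 lay between 500 and 2000 CPM. The 119 basal cells among the 140 differed between mice in the other members. Their *Psca* was at 750 CPM in WT1 (42 cells), 435 in WT2 (8 cells), 3579 in WT3 (25 cells), 7.03 in MT1301 (4 cells), 49.4 in MT1306 (11 cells) and 380 CPM in MT1383 (29 cells). In the same order, their *Krt6a* was at 654, 1631, 2492, 14.1, 374 and 846 CPM, so that WT3 was the highest and MT1301 the lowest mouse for both genes. *Tgm3* in these cells was at 0 to 16.7 CPM in each mouse, below the 42.0 CPM of the lowest mouse in Basal4.

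Multiciliated and secretory cells, which are not known for these keratins, also had *Krt13* UMIs. In Multiciliated3 the *Krt13* level was 82.7 CPM in WT1 and 23.0 CPM in WT3 but 0.69 to 2.09 CPM in the other 4 mice. Shares of cells with a *Krt13* UMI at 5000 UMIs per cell were 11.6% in WT1, 0.40% in WT2, 3.40% in WT3, 0% in MT1301 (0 of 381 cells, which allows a share of up to 0.787%), 1.09% in MT1306 and 0.34% in MT1383. WT1 and WT3, the mice with most Basal4 cells, were the high ones. Before thinning, the median depth was 26360 UMIs in Multiciliated3 and 30257 UMIs in Basal4. *Krt4* did not follow *Krt13* there: per 100 *Krt13* UMIs, WT1 had 56.0 *Krt4* UMIs in Basal4, 135 in multiciliated and 161 in secretory cells, and WT2 had 3268 in multiciliated and 3230 in secretory cells. The part of free RNA in these shares was not tested.

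Summed over all cells of a culture, the members varied more than most genes between mice of the same genotype. *Krt13* was at 2853 CPM in WT1, 15.5 in WT2, 736 in WT3, 11.9 in MT1301, 211 in MT1306 and 33.0 in MT1383. WT2 lay between MT1301 and MT1383, so the genotypes overlapped. *Psca* ranged over 433, 4.42 and 355 CPM in WT1, WT2 and WT3, and over 2.16, 38.5 and 12.96 CPM in MT1301, MT1306 and MT1383. *Krt4* was at 1818, 151 and 454 CPM in *WT/WT* and at 229, 226 and 193 CPM in *MIS/MIS* mice in the same order, so its spread lay among the *WT/WT* mice. The SD within a genotype had a median of 2.60 on the log2 scale over the members, beside 0.20 over all 16461 genes tested, and each member was above the 96th percentile. A summed level cannot tell fewer cells of a type from less RNA per cell, and here both the number of Basal4 cells and the level within them are given.

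**Figure D4:**
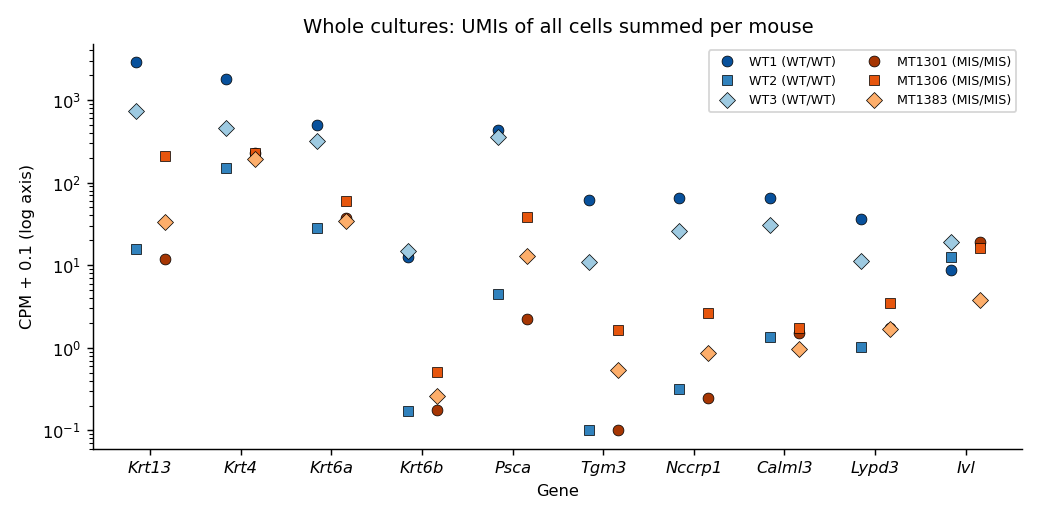
CPM plus 0.1 (log axis) of the 10 genes over all cells of each culture, with blue points for *WT/WT* and orange points for *MIS/MIS* mice. WT1 and WT3 are high for 9 genes, WT2 lies with the *MIS/MIS* mice, and *Ivl* runs from 3.67 to 19.0 CPM with the genotypes mixed.

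The genotypes were then compared over the mice. None of the 10 members passed over all cells, where 0% of the 16461 genes tested were called (0 genes at an adjusted p under 0.05 by limma voom, 937 at an unadjusted p under 0.05). *Krt13* was at 1202 ± 1475 CPM in *WT/WT* and 85.3 ± 109 CPM in *MIS/MIS* mice (SD, n = 3 each), a log2 difference of -3.03 ± 1.98 (SE, adjusted p = 0.84). *Krt6a* had a log2 difference of -2.07 ± 1.03 (adjusted p = 0.83), *Krt4* of -1.31 ± 0.81 (0.84), *Psca* of -3.29 ± 2.18 (0.84) and *Ivl* of -0.47 ± 0.66 (0.91). The median over the 10 members was -3.06, beside 0.00 over all genes. In 0 members did the genotypes not overlap, whereas 10.0% of all genes did not overlap. Without WT2, 9 members were lower in each *MIS/MIS* mouse than in WT1 and WT3, beside 21.1% of all genes free of overlap in either direction, and 0 were called. WT2 was the *WT/WT* mouse that lay with the *MIS/MIS* mice, so this count depends on the mouse left out and is no test. With any other mouse left out, 0 members were free of overlap. The median without a mouse ran from -5.23 without WT2 to -1.32 without WT1, and it was -1.26 for the cells outside Basal4 only.

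Basal cells outside Basal4 also had no member called. Of the 9 members tested there (*Tgm3* had too few counts), 0 passed, as did 0% of 14364 genes (235 at an unadjusted p under 0.05). *Krt13* was at 264, 33.6 and 92.0 CPM in WT1, WT2 and WT3 and at 20.2, 63.0 and 54.8 CPM in MT1301, MT1306 and MT1383, so WT2 again lay among the *MIS/MIS* values. The log2 difference was -1.19 ± 0.77 (adjusted p = 1.00). *Psca* differed by -2.36 ± 1.23, *Krt6a* by -1.20 ± 0.51 and *Ivl* by -0.11 ± 0.58. *Krt4* was at 866, 208 and 152 CPM in *WT/WT* and at 407, 256 and 406 CPM in *MIS/MIS* mice, with a log2 difference of 0.15 ± 0.63, and its direction turned without WT2 or without WT3. The genotypes overlapped for all 9 members tested, and 4.96% of all genes did not overlap. Without WT2, 7 of 10 members tested were lower with no overlap, beside 13.6% of all genes free of overlap in either direction. With another mouse left out, 0 to 3 members were free of overlap in either direction. The difference of *Krt13* was -0.46 without WT1 and -1.95 without WT2, the extremes over the mice left out, and 0 members were called in any of these fits.

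Of the 7 members tested in secretory cells and the 7 in multiciliated cells, 0 were called. Over all genes, 0.00735% of 13610 in secretory and 0.00704% of 14206 in multiciliated cells were called, in both cases 1 gene, *Wdfy1*, which was looked up after its value was seen. In multiciliated cells *Krt4* was at 149.8, 58.5 and 70.5 CPM in *WT/WT* and at 52.7, 22.8 and 47.4 CPM in *MIS/MIS* mice, with a log2 difference of -1.14 ± 0.41 (adjusted p = 0.90). *Psca* was at 9.02, 4.32 and 17.0 CPM in *WT/WT* and 3.44, 3.42 and 2.42 CPM in *MIS/MIS* mice, a log2 difference of -1.59 ± 0.49 (adjusted p = 0.90). These were the 2 of 7 members whose genotypes did not overlap, beside 9.62% of all genes, and neither passed. In secretory cells 0 of 7 members were free of overlap, beside 6.03% of all genes. Without WT2, members free of overlap numbered 3 of 7 in secretory cells, beside 12.2% of all genes, and 6 of 8 in multiciliated cells, beside 18.3%. With another mouse left out they numbered 0 to 2 in secretory and 2 to 3 in multiciliated cells. *Krt13* differed by -1.40 ± 1.15 in secretory and -2.74 ± 1.67 in multiciliated cells, with WT1 the highest mouse in both (50.2 and 111 CPM).

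The share of cells with a *Krt13* UMI at 5000 UMIs per cell was 48.1% in WT1, 2.39% in WT2, 11.01% in WT3, 3.15% in MT1301, 7.26% in MT1306 and 2.01% in MT1383. The mean difference, *MIS/MIS* minus *WT/WT*, was -16.4 percentage points (two-sided exact permutation test, p = 0.3), and the smallest p that 3 against 3 mice allow is 0.1. Without WT1 the difference was -2.56 points. Over the basal cells outside Basal4, the shares were 20.6%, 3.69% and 8.09% in *WT/WT* and 4.62%, 6.60% and 3.42% in *MIS/MIS* mice, with a difference of -5.92 points (exact p = 0.3). Without WT1 it was -1.01 points.

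Within Basal4 itself, 9 members were at lower levels in the *MIS/MIS* cells, though 0 passed the test. This comparison was added after the data were seen, and it rests on WT1 and WT3 against MT1306 and MT1383. *Krt13* was at 8349 and 12331 CPM in the *WT/WT* and 5017 and 2881 CPM in the *MIS/MIS* mice, *Krt4* at 4679.5 and 6408 against 2851 and 1929.6 CPM, and *Calml3* at 196 and 547 against 37.9 and 109 CPM. All members other than *Ivl* were lower in both *MIS/MIS* mice than in both *WT/WT* mice, a pattern that 19.2% of the 10591 genes tested also had. *Ivl* was at 13.3 and 35.1 against 39.3 and 8.12 CPM. The plot of Basal4 cells by mouse shows the separation for 9 genes.

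**Figure D5:**
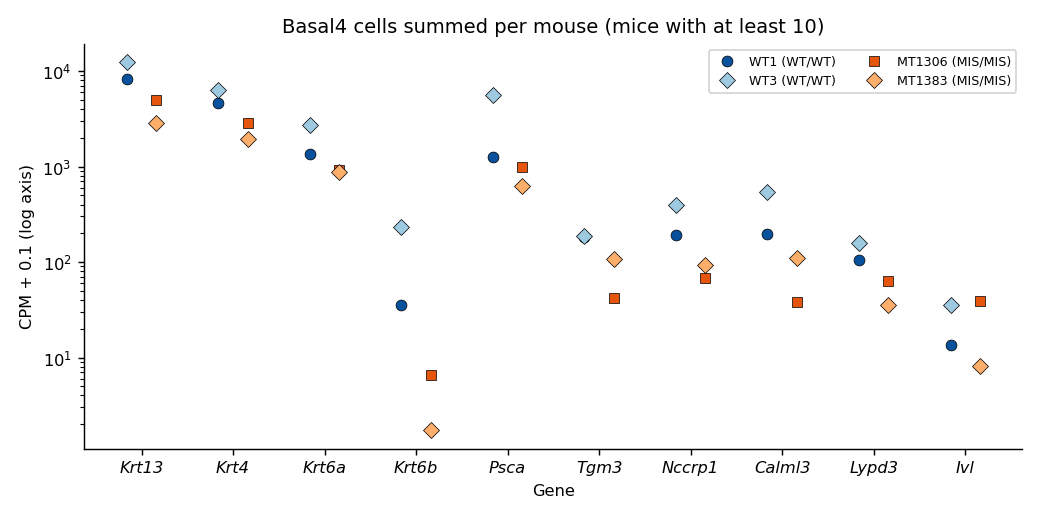
CPM plus 0.1 (log axis) of the 10 genes in the summed Basal4 cells of the 4 mice with at least 10 such cells, with *WT/WT* in blue and *MIS/MIS* in orange. Both *WT/WT* points lie above both *MIS/MIS* points for each gene other than *Ivl*.

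By limma voom the log2 differences in Basal4 were -1.50 ± 0.34 for *Krt13*, -1.30 ± 0.27 for *Krt4*, -1.17 ± 0.32 for *Krt6a*, -1.83 ± 0.31 for *Tgm3* and -1.98 ± 0.40 for *Nccrp1*, with adjusted p-values of 0.39, 0.38, 0.48, 0.32 and 0.37. Their median over the 10 members was -1.66, beside 0.00 over all genes, and 0 members were called, as were 0% of all genes (748 at an unadjusted p under 0.05). Leaving out WT1 gave 9 members and 3.93% of 10691 genes called, and leaving out WT3 gave 6 members and 3.67% of 10937 genes. In both, a lone *WT/WT* mouse was assumed to vary like the others. The median *Krt13* level per cell was 7292 CPM in WT1, 5355 in WT3, 2869 in MT1306 and 207 in MT1383. This is also the order of the numbers of Basal4 cells (1048, 167, 118 and 29), whereas the summed level was higher in WT3 than in WT1. The part of cell number and of depth (medians of 30306, 31847, 29507 and 18713 UMIs per Basal4 cell) in the result was not tested.

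The surrounding program was taken from 5 lists of other genes. Cell types were ranked by the mean over mice, so single mice can lie below the mean of another cell type. Of 28 measured cornified envelope and small proline-rich genes, 16 were highest in Basal4, as against 4.42% of the 20478 genes with a UMI. *Ecm1*, an extracellular matrix protein of skin, had a mean of 1314 CPM there and its next highest mean, 958 CPM, in Basal1. By mouse it ran from 759 CPM in MT1306 to 1891 CPM in WT3 within Basal4. *Cstb*, an inhibitor of cysteine proteases, was higher in Basal1 (1310 CPM) than in Basal4 (1164 CPM). *Sprr2a3*, an envelope precursor, and *Ppl*, which encodes periplakin, were at 372 and 219 CPM in Basal4. There *Sprr2a3* ran from 234 CPM in MT1383 to 636 CPM in WT3, beside a mean of 264 CPM in Basal5. Of 11 desmosome and adhesion genes, 9 were highest in Basal4. *Perp*, a desmosome protein under p63 control, was at 937 CPM in Basal4 and 268 CPM in Basal3, *Dsp* (desmoplakin) at 549 CPM, *Ly6d* at 492 CPM and *Jup* (plakoglobin) at 369 CPM.

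Of 14 other keratins, 4 were highest in Basal4. *Krt14* had a mean of 1639 CPM and *Krt5* of 1202 CPM there. *Krt15* was highest in Basal5 (7122 CPM, with 5941 CPM in Basal4) and *Krt7* in Basal1. By mouse, *Krt14* in Basal4 was at 826 CPM in WT1, 1933 in WT3, 1359 in MT1306 and 2436 in MT1383. Its mean in Basal1 was 1299 CPM. With the cells of all mice pooled, *Krt14* was highest in Basal1 (1281 CPM, with 1033 CPM in Basal4), so its rank turned with the measure. Of 6 other hillock genes, 2 were highest in Basal4, namely *Anxa1* (3478 CPM, with 3196 CPM in Basal1) and *Ecm1*, while *S100a11* and *Lgals3* were highest in Multiciliated4. Of 16 regulators of squamous differentiation, 6 were highest in Basal4. *Pitx1* was at 329 CPM in Basal4 and 100.2 CPM in Basal5, and *Klf4* at 265 CPM and 161 CPM in Basal8. *Klf5* was highest in Multiciliated1 and *Ehf* in Basal7, each close to its level in Basal4.

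None of these lists held a gene that passed between genotypes in any of the 4 populations. Over all cells the median log2 difference was -0.81 for the 24 envelope genes tested, -0.81 for the 11 desmosome genes, -0.28 for the 14 keratins, -0.30 for the 6 hillock genes and -0.37 for the 16 regulators. In basal cells outside Basal4 the medians were -0.09, -0.31, -0.11, -0.06 and -0.03 in the same order, over 22, 11, 13, 6 and 16 genes tested. In secretory cells they ran from -0.20 to 0.01 and in multiciliated cells from -0.39 to 0.04. The median over all genes tested was between 0.00 and 0.01 in size in each population.

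Genes that are no members were ranked by how closely their pattern over the 16 cell types followed that of the members, by Pearson's r of log2(CPM + 1) among 11720 candidates. Nearest to *Krt13* were *Bcl11b* (r = 0.92), *Plcd1* (0.91), *Prss27* (0.91), *Foxd1* (0.91) and *Tmprss11b* (0.91), all highest in Basal4, at 25.5 to 62.2 CPM. Nearest to the mean of the members were *Tmprss11b* (r = 0.97), *Prss27* (0.96), *Foxd1* (0.96), *2300002M23Rik* (0.95) and *Cyp27a1* (0.94). *Tmprss11b* and *Prss27* encode membrane-bound or secreted serine proteases. *Ivl* was nearest to *Capg* (r = 0.91), *Tmod3* (0.91), *Duoxa1* (0.91), *Srgap3* (0.91) and *Upk3bl* (0.91), and none of these 5 was highest in Basal4. *Capg* and *Tmod3* cap actin filaments, and *Duoxa1* is the maturation factor of the dual oxidase DUOX1.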

How the data were processed

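The authors processed the 10x 3′ v2 libraries with Cell Ranger (7.1.0 in the submitters' processing notes, another version in the published methods) against mm10. They filtered and clustered cells in Seurat and deposited raw UMI counts with a name for each cluster. Both deposited tables separate their cells by a mistyped tab, and each cell's total equalled that of the cell table. The stated removal of doublets by genes detected (over 7500) did not hold in the file, where 655 cells were above that limit (5 in Basal4). No doublet caller was run.

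The members and lists were chosen with earlier results of these data known. MT1301, MT1306 and MT1383 match no numbered title and were used as replicates of their genotype. There were 0 per-sample columns outside the 6 mice. CPM is UMIs per 1000000 UMIs of the summed cells. Whether cultures were independent beyond 1 mouse each is not stated. UMIs were summed per mouse and population and tested with limma 3.58.1 (voom) in R 4.3.3, in place of the planned count model, because the separator kept the table from being recorded as counts. Genes needed 10 counts in a median-sized library in the smaller group's number of mice, and a total of 15. TMM factors (trims 0.3 and 0.05) and Benjamini-Hochberg values (threshold 0.05) were used. The fit was tested on simulated data in which 200 genes differed by 2-fold. With a dispersion of 0.02, 93.0% were recovered over all cells (16461 genes) and 91.0% in basal cells outside Basal4 (14364 genes). At a dispersion of 0.1 these were 2.5% and 0%. The self-test was not made for Basal4. Cells were thinned without replacement to 5000 UMIs (0 cells left out).

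Named genes were all members, up to 4 genes per list with the highest mean CPM in Basal4, and the 5 nearest genes per pattern. The alternatives were limma trend, RLE factors, no filter, thinned cells, each mouse left out, cells outside Basal4, equal weight per basal cluster, pooled cells, at least 50 cells, other depths and Spearman's rho. Python 3.11.15, numpy, pandas, scipy and Biopython 1.88 served the remaining steps.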

Additional observations from a re-analysis of the deposited data

How the results depend on the processing

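No paired analysis was possible because MT1301, MT1306 and MT1383 carry animal numbers that no sample title holds. The planned negative binomial fits by 2 other tools were not run, since the table was not recorded as counts. limma trend and the comparison within Basal4 were chosen after seeing the data. The count of members called between genotypes was 0 over all cells, in basal cells outside Basal4, in secretory and in multiciliated cells under every alternative run. In Basal4 it was 0 under limma trend, RLE factors and no filter, and 0 to 9 with a mouse left out (9 without WT1, 6 without WT3). Differences of single members kept their direction in 108 of 109 alternatives over all cells, 93 of 97 in basal cells outside Basal4 and 67 of 70 in Basal4. The log2 difference of *Ivl* turned to 0.40 over all cells without MT1383. In basal cells outside Basal4 it ran from -0.54 to 0.56 with a mouse left out, turning to 0.56 without MT1383 and 0.12 without WT3. In Basal4, where it was 0.80, it ran from -1.28 to 1.39, turning to -1.28 without MT1306 and -0.25 without WT1, and it was -0.24 by limma trend. *Krt4* in basal cells outside Basal4 ran from -0.38 to 0.96, turning to -0.086 without WT2 and -0.38 without WT3. The cause was not tested. In Basal4, 9 members were at their highest under each alternative run. Shares of cells with a *Krt13* UMI kept their direction, with -25.4 to -2.56 points over all cells and -9.47 to -1.01 points in basal cells outside Basal4 when a mouse was left out. By Spearman's rho, 2, 1 and 0 of the 5 nearest genes to *Krt13*, *Ivl* and the mean of the members remained. The members' median SD within a genotype was 2.60 on the log2 scale over all cells, and the power to detect differences at such a spread was not simulated. Leaving out WT2 gave 9 members without overlap over all cells, and leaving out any other mouse gave 0.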
